A study of Mus musculus with 10 samples.

Results

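The genes described here encode the enzymes of mitochondrial fatty acid beta-oxidation together with a receptor that controls them: Cpt1a, Cpt1b, Cpt2, Acadvl, Acadl, Acadm, Hadha, Hadhb and Ppara. They were taken by gene symbol from the normalized count table, and all 9 were found among its 54446 genes. In mitochondria, long-chain fatty acids enter as carnitine esters through the carnitine shuttle and are then shortened by repeated rounds of dehydrogenation, hydration, a further dehydrogenation and thiolytic cleavage. The electrons pass to the respiratory chain, and the acetyl-CoA released feeds the citric acid cycle. Striated muscle, heart, liver and brown fat are known for high rates of this pathway, and the muscle coat of the mouse esophagus is largely striated, so whole-esophagus RNA mixes muscle and epithelium.

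The samples were whole esophagi of C57BL/6 mice of WT genotype in which eosinophilic esophagitis was modelled with the allergen oxazolone (OXA), or which received vehicle as the control. There were 5 OXA libraries, named C1 and D1 to D4, and 5 vehicle libraries, named A1 to A5. Not given in the sources used here are dose, schedule, age and sex, and what the letters mean, so letter and treatment cannot be told apart. The labels do not say that each library is 1 animal, so a p-value here speaks only of the spread among these 10 libraries, which may be technical.

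CEL-Seq libraries count the 3′ ends of polyadenylated transcripts, and the values below are normalized counts, that is, reads divided by a size factor per library. Total reads ran between 3675479 (D2) and 8364227 (D1) in OXA libraries and between 5094159 (A5) and 12108822 (A4) in vehicle libraries. A count of 0 allows up to 3 reads, which is 3.50 normalized counts on average in OXA libraries and 2.82 in vehicle libraries, for counting error only. The 10 squamous epithelium markers (none at 0 throughout) summed to between 226302 and 552216 in OXA libraries and between 601698 and 1018350 in vehicle libraries, without overlap. This sum leans on its most abundant gene, Krt4, which averaged 271714 normalized counts over the 10 libraries. The 10 leukocyte markers summed to between 2663 and 5044 in OXA libraries and between 1336 and 2040 in vehicle libraries, again without overlap. The hepatocyte markers summed to at most 11.5 in OXA libraries and at most 4.5 in vehicle libraries, with Serpina1a at 0 throughout, and the cardiomyocyte markers Myh6 and Nppa were at 0 throughout. Because RNA came from whole tissue, fewer cells of a type and less RNA per cell cannot be told apart in any result below.

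Of the 9 genes, 8 had a mean of at least 5 normalized counts over the 10 libraries and were tested. The test was limma on log2(value + 1) over all 14712 genes that reached this mean, called at a Benjamini-Hochberg adjusted p under 0.05. The transcripts of Cpt1a, Acadm, Hadha and Acadvl were lower in OXA esophagi, and no member was higher. Over all genes tested, 29.9% were called, 14.2% lower and 15.7% higher, and the median log2 change was -0.01, against -0.49 over the 8 members. The OXA and vehicle libraries did not overlap for Acadm and Hadha, 2 of the 8, against 10.4% of all genes tested that were lower without overlap, 12.0% that were higher and 22.4% in all. Cpt2, Acadl, Hadhb and Ppara did not pass the test. The epithelial and leukocyte marker sums given above moved with treatment, and their part in these changes was not tested. Single squamous markers went both ways: of 10 tested, 2 were called higher and 3 lower, with log2 changes from -2.38 to 2.18.

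**Figure D1:**
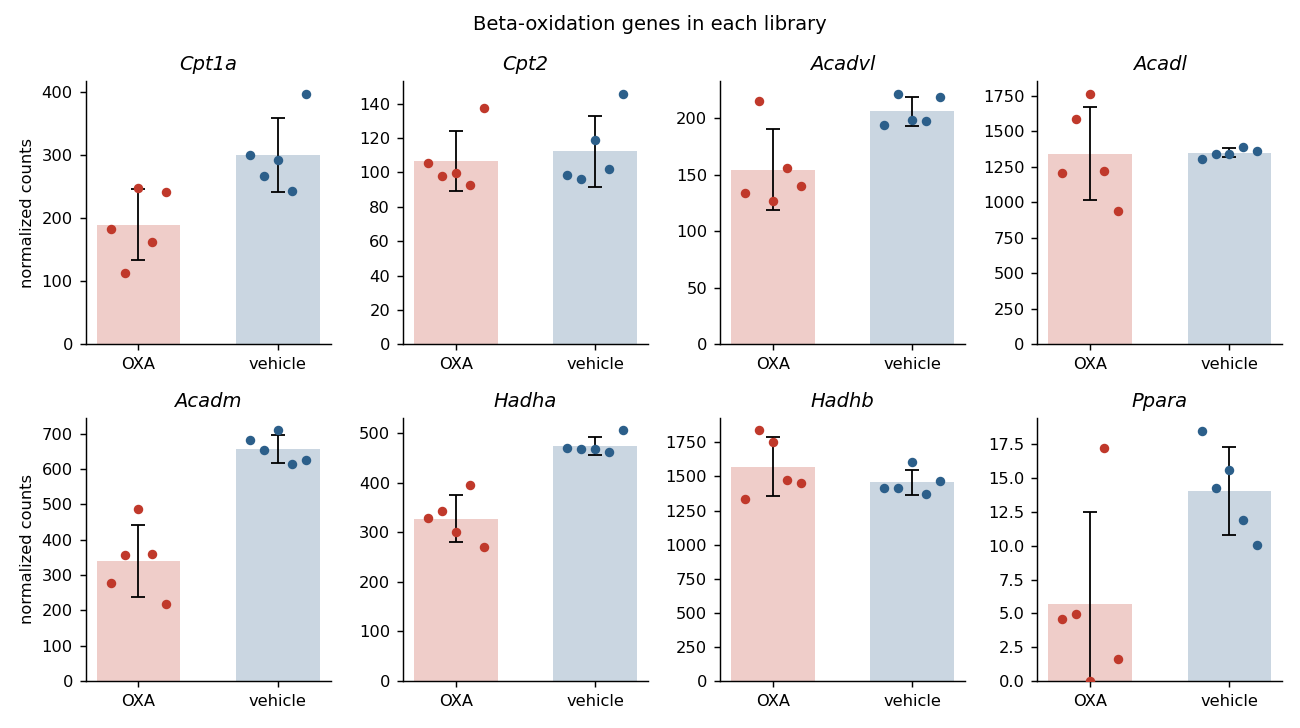
Normalized counts (y axis) of the 8 tested genes in the 5 OXA libraries (left) and the 5 vehicle libraries (right) of each panel, as points; bars are means and lines are ± 1 SD, which is cut off at 0 for Ppara. Every OXA library lies below every vehicle library for Acadm and Hadha, whereas the groups overlap for Acadl and Hadhb.

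The carnitine shuttle begins with carnitine palmitoyltransferase 1 in the outer mitochondrial membrane, which makes the carnitine ester and is the main point of control of the pathway; Cpt1a encodes the liver-type form and Cpt1b the muscle-type form. Positions here and below are on GRCm38 as the table lists them. Cpt1a (chr19:3323301-3386032, plus strand) had 182, 114, 248, 162 and 241 normalized counts in OXA libraries C1 and D1 to D4, against 301, 268, 292, 244 and 398 in vehicle libraries A1 to A5. Of the OXA libraries, 4 lay below every vehicle library, and D2 stood just above A4, the lowest vehicle library. Cpt1a averaged 189 ± 56.2 in OXA and 300.5 ± 58.8 in vehicle libraries (SD, n = 5 each), a log2 change of -0.70 ± 0.21 (SE; limma adjusted p = 0.0227). An exact two-sided permutation test of its 10 values gave p = 0.0159, where 0.00794 is the smallest that 5 against 5 libraries allow. Without vehicle library A5, the highest, the change no longer passed (limma adjusted p = 0.0595), and the count of members called lower was then 2.

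Cpt1b was at 0 in all 5 OXA libraries and in 4 vehicle libraries, and 1 read was counted in A3 (0.97 normalized counts). No fold is given, since both groups were under the limit that 3 reads set. The gene (chr15:89416105-89425863, minus strand) lies, apart from 300 bases at its 3′ end, inside the listed span of a protein-coding gene of the same strand, Gm44502, with which it shares 9459 bases. Gm44502 was itself at 0 in all 10 libraries. The sources used here do not say how reads that match both were treated, so these zeros are not a reading of the muscle-type transcript.

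Cpt2 (chr4:107903681-107923610, minus strand) encodes the inner-membrane enzyme that turns the carnitine ester back into acyl-CoA. It had 105, 98.1, 99.6, 92.9 and 137 normalized counts in OXA libraries C1 and D1 to D4, and 98.6, 96.0, 119, 102 and 146 in vehicle libraries A1 to A5. The groups overlapped almost throughout, with 1 high library in each, D4 and A5. The log2 change was -0.07 ± 0.17 (SE; limma adjusted p = 0.788; exact permutation p = 0.619).

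Nuclear receptors of the PPAR family bind as heterodimers to repeats of the motif AGGTCA spaced by 1 base, and the members were therefore searched for this motif. RefSeq promoter windows (GRCm38.p6, 250 bases before to 50 after the start) were matched by symbol for 8 of the 9 genes. The motif AGGTCA or its reverse complement TGACCT occurred in 3 of these 8, those of Cpt1a, Acadm and Acadvl, and in 16.3% of all 32851 windows. The full direct repeat, AGGTCA followed by any 1 base and AGGTCA again, on either strand, occurred in 0 of the 8 and in 0.0396% of all windows. An exact repeat this rare could hardly appear in 8 windows, so its absence says nothing about these genes. Inexact repeats and bases outside the windows were not searched. These 3 genes were all among the 4 called lower, while the fourth, Hadha, had no match. The Acadvl call was lost under 14 of 19 alternative settings. A match of letters is not a binding site, and a link between the motif and the changes was not tested. The windows are shown to give the place of the motif, in capitals, in chr19:3323051-3323350 (plus strand) for Cpt1a, chr3:153944594-153944893 (minus strand) for Acadm and chr11:70015379-70015678 (minus strand) for Acadvl.
Cpt1a: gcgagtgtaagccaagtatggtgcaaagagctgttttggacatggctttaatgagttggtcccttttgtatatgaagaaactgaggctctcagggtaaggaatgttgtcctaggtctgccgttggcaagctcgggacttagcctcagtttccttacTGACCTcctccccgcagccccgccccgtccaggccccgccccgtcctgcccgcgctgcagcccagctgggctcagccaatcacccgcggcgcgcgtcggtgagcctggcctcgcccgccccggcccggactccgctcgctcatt
Acadm: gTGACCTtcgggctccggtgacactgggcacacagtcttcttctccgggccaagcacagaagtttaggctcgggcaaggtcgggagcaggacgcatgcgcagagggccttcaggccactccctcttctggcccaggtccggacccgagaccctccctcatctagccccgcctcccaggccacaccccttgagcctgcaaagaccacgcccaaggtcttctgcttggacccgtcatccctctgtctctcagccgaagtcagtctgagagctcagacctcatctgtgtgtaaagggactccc
Acadvl: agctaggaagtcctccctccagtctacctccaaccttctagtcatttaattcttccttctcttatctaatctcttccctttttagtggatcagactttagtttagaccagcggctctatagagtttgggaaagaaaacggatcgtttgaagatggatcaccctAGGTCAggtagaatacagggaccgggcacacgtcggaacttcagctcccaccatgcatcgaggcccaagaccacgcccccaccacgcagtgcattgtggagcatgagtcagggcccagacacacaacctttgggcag
The match begins 94 bases before the start in Cpt1a and 249 before it in Acadm, both in the reverse direction, and 87 before it in Acadvl, in the forward direction.

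The first step of each round is catalysed by acyl-CoA dehydrogenases of different chain length preference. Acadvl (chr11:70009883-70015411, minus strand), the very long-chain enzyme of the inner membrane, had 134, 215, 127, 156 and 140.5 normalized counts in OXA libraries C1 and D1 to D4. In vehicle libraries A1 to A5 it had 194, 222, 199, 198 and 219. Library D1, with 215, lay within the vehicle range, and the other 4 OXA libraries lay below it. Acadvl averaged 155 ± 35.6 in OXA and 206 ± 13.05 in vehicle libraries, a log2 change of -0.44 ± 0.16 (SE; limma adjusted p = 0.0493; exact permutation p = 0.0317). This call sat at the threshold and was lost under 14 of 19 alternative settings, with limma, edgeR or DESeq2 adjusted p between 0.0620 and 0.226 in those 14. Acadvl shares 2719 bases with Dvl2, on the opposite strand, whose mean was 35.1 normalized counts, and the sources used here do not say whether counting used strand.

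Acadm (chr3:153922057-153944632, minus strand), the medium-chain acyl-CoA dehydrogenase, gave the largest called change among the 9 genes. It had 276, 357, 487, 359 and 217 normalized counts in OXA libraries C1 and D1 to D4, against 684, 653, 710.3, 614 and 627 in vehicle libraries A1 to A5. The highest OXA library, D2, lay below the lowest vehicle library, A4. Acadm averaged 339 ± 102 in OXA and 658 ± 39.8 in vehicle libraries, or 51.6% of the vehicle mean, a log2 change of -1.003 ± 0.18 (SE; limma adjusted p = 0.00103; exact permutation p = 0.00794). The call held under all 19 alternative settings, with limma, edgeR or DESeq2 adjusted p between 1.01e-05 and 0.00407.

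Acadl (chr1:66830539-66863277, minus strand) encodes the long-chain enzyme, and its group means lay close together. It had 1205, 1584, 1765, 1219 and 940.25 normalized counts in OXA libraries C1 and D1 to D4, and 1302, 1339, 1342, 1388 and 1362 in vehicle libraries A1 to A5. The OXA values spread on both sides of the vehicle values, with 3 libraries below them all and 2 above them all. Acadl averaged 1343 ± 329 in OXA and 1347 ± 31.6 in vehicle libraries, and the log2 change was -0.04 ± 0.16 (SE; limma adjusted p = 0.876; exact permutation p = 0.849). Acadm and Acadl followed each other within the groups: their deviations from the group means had a Pearson r of 0.884 over the 10 libraries, a description that shares each library's depth and normalization. The OXA libraries D2 and D4 were the highest and lowest for both genes.

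The mitochondrial trifunctional protein carries out the remaining steps for long chains, with the alpha subunit, Hadha, holding the hydratase and hydroxyacyl-CoA dehydrogenase activities, and the beta subunit, Hadhb, the thiolase. Hadha had 328, 343, 300.5, 396 and 271 normalized counts in OXA libraries C1 and D1 to D4, against 471, 468, 469, 462 and 507 in vehicle libraries A1 to A5. Every OXA library lay below every vehicle library. Hadha averaged 328 ± 47.1 in OXA and 475 ± 17.8 in vehicle libraries, a log2 change of -0.54 ± 0.13 (SE; limma adjusted p = 0.00513; exact permutation p = 0.00794). The call held under all 19 alternative settings, with adjusted p between 2.90e-04 and 0.0294. Hadha shares 675 bases with Garem2 on the opposite strand, which was at 0 throughout.

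Hadhb had 1333, 1839, 1756, 1472 and 1449 normalized counts in OXA libraries C1 and D1 to D4, and 1419, 1415, 1609, 1374 and 1467 in vehicle libraries A1 to A5. The groups overlapped, and the log2 change was 0.10 ± 0.13 (SE; limma adjusted p = 0.595; exact permutation p = 0.325). The ratio of Hadha to Hadhb within a library does not depend on the scaling between libraries. It was 0.246, 0.187, 0.171, 0.269 and 0.187 in OXA libraries C1 and D1 to D4, and 0.332, 0.331, 0.291, 0.336 and 0.345 in vehicle libraries A1 to A5. The 2 groups did not overlap, and the difference of the mean log2 ratios was -0.64 (-2.26 ± 0.28 in OXA and -1.61 ± 0.10 in vehicle libraries, SD, n = 5 each; exact permutation p = 0.00794). The subunit transcripts thus changed unequally, which does not say that either was unchanged.

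**Figure D2:**
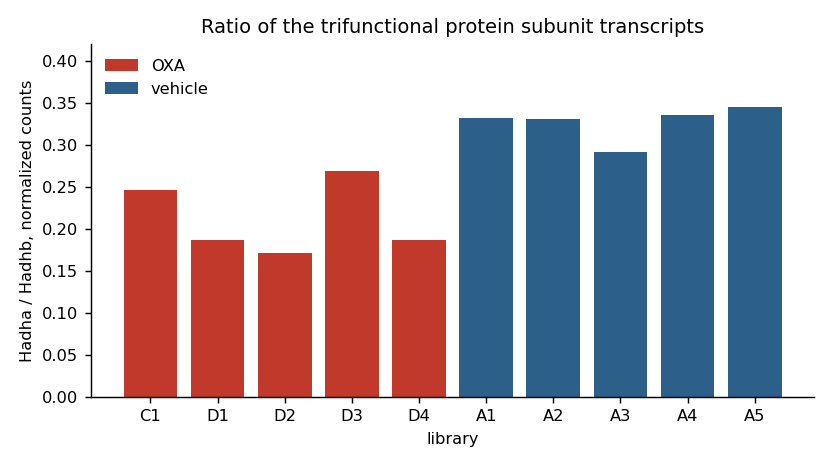
Ratio of Hadha to Hadhb normalized counts (y axis) in each library (x axis), OXA libraries left and vehicle libraries right; each bar is 1 library. The OXA libraries lie between 0.171 and 0.269, all below the vehicle libraries, which lie between 0.291 and 0.345.

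Hadha and Hadhb are transcribed away from each other from 1 shared region on chromosome 5, with 85 bases between Hadha (chr5:30118004-30155162, minus strand) and Hadhb (chr5:30155248-30184893, plus strand). Their RefSeq promoter windows share 228 bases. The window of Hadhb, chr5:30155003-30155302 (GRCm38.p6, plus strand), is shown because it holds this shared region, with the bases between the genes in capitals; neither window holds AGGTCA on either strand.
Hadhb: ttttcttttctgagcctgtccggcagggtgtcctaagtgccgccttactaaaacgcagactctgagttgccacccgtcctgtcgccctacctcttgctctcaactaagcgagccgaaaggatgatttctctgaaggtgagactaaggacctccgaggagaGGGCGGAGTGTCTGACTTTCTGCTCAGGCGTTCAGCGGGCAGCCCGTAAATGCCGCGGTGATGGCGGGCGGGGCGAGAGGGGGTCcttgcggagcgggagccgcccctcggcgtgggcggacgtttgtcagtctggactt

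Ppara (chr15:85734983-85803119, plus strand) encodes the fatty acid-sensing nuclear receptor that switches on many genes of this pathway. It was close to the detection limit, with 6, 7, 0, 18 and 1 reads in OXA libraries C1 and D1 to D4 and 18, 19, 16, 23 and 7 in vehicle libraries A1 to A5. These are 4.58, 4.98, 0, 17.2 and 1.6 normalized counts in the OXA libraries, and 18.5, 14.2, 15.6, 11.9 and 10.02 in the vehicle libraries. Library D3, with 17.2, lay inside the vehicle range, and the other 4 OXA libraries lay below it; in D2, the shallowest library, a count of 0 allows up to 5.43 normalized counts. The log2 change was -1.76 ± 0.64 (SE) and did not pass the test (limma adjusted p = 0.0523; exact permutation p = 0.0397). It passed without D3 (log2 change -2.27, limma adjusted p = 0.0104) and with a pseudocount of 5 (log2 change -1.02, adjusted p = 0.0435), but under none of the other 16 settings that gave a value. The size of the change depended on the setting: it was -1.18 in edgeR and -1.21 in DESeq2 on whole reads, -1.23 without D2 and -0.91 without A5, D2 and D4.

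The muscle content of each library was read from 24 skeletal muscle markers, all detected and none at 0 throughout, whose summed normalized counts ran from 117086 to 428107 in OXA libraries and from 227469 to 316716 in vehicle libraries. Acta1, skeletal muscle actin, had 21439, 60003, 18930, 43057 and 12104 normalized counts in OXA libraries C1 and D1 to D4, and 30064, 33003, 29123, 32783 and 24544 in vehicle libraries A1 to A5. Ckm, muscle creatine kinase, had 15015, 35129, 15505, 31664 and 10260 in the OXA libraries and 30450, 34551, 32252, 33163 and 29158 in the vehicle libraries. Muscle content thus varied mainly among the OXA libraries, with D1 and D3 high and C1, D2 and D4 low. Neither Acta1 (log2 change -0.17 ± 0.38, limma adjusted p = 0.765) nor Ckm (-0.73 ± 0.33, limma adjusted p = 0.112) passed the test, although Ckm did without D1 (adjusted p = 0.0281). A muscle score, the centred mean of log2(value + 1) over the 24 markers, averaged -0.28 ± 0.91 in OXA and 0.28 ± 0.26 in vehicle libraries (SD, n = 5 each), a difference of -0.56 with an exact permutation p of 0.206. This difference ran from -0.86 without D1 (exact permutation p = 0.0635) to -0.33 without D4, and it was -0.16 without A5, D2 and D4.

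The other abundant markers of this list, Tnnc2 (-0.26, adjusted p = 0.570) and Atp2a1 (-0.77, adjusted p = 0.203), did not pass in limma. Atp2a1 did pass without D1 (-1.11, limma adjusted p = 0.0375). Of the 24 markers, 4 were called lower and 0 higher, with log2 changes from -1.83 to 0.26. Over all genes tested, 14.2% were called lower and 15.7% higher, the shares against which the counts of each list below also stand. The 24 markers did not move as 1 set. With their own score in the fit, 4 were called higher and 4 lower, with log2 changes from -1.43 to 0.95. Of the slow muscle markers, 6 of 8 were tested, 1 was called higher and 1 lower. Their sums were 8786 to 20339 in OXA and 17690 to 19556 in vehicle libraries. Myl3, a slow myosin light chain, was the most abundant (-0.71, limma adjusted p = 0.0460, lost without most single libraries). It had the lowest log2 change of the tested slow markers, whose median was 0.51 and highest 2.04. With the muscle score in the fit, 4 slow markers were called higher and 0 lower, against 15.3% and 15.2% of all genes tested. Of the smooth muscle markers, 9 of 10 were tested and 3 were called lower, with sums of 8400 to 15384 in OXA and 11428 to 26677 in vehicle libraries, and Acta2, smooth muscle actin, did not pass (-0.58, limma adjusted p = 0.0730). The brown adipocyte markers summed to 155.67 to 208 in OXA and 116 to 154.53 in vehicle libraries, narrowly without overlap. Of these, 3 of 5 were tested and 1 was called higher, at a log2 change of 2.96 without overlap between the groups. Elovl3 was at 0 throughout and Cidea, the most abundant, at 0.064 (limma adjusted p = 0.906). Of the cardiomyocyte markers, 3 of 6 were tested, with sums of 114 to 194 in OXA and 176 to 253 in vehicle libraries. Of these, 1 was called higher (3.07) and 1 lower (-1.12), each without overlap between the groups. Myl4, the most abundant, was at -0.14 (limma adjusted p = 0.691). The squamous marker Krt4, the most abundant of its list, changed by -1.53 (limma adjusted p = 0.0344), a call lost without most single libraries; in that list 2 of 10 genes were called higher and 3 lower.

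With the muscle score as a covariate, 3 of the 8 members were called lower and 0 higher, against 15.2% lower and 15.3% higher of all genes tested, 30.6% in all. Cpt1a changed by -0.98 ± 0.15 (SE; limma adjusted p = 2.18e-04), Acadm by -0.91 ± 0.19 (adjusted p = 0.00207) and Hadha by -0.46 ± 0.12 (adjusted p = 0.0108), each on the log2 scale. All 3 were called lower with and without the score. Without D1, the library richest in muscle, Hadha lost its call in this fit (limma adjusted p = 0.163), while Cpt1a and Acadm kept theirs without any 1 library. Acadvl (-0.29 ± 0.14, adjusted p = 0.143) and Ppara (-1.12 ± 0.60, adjusted p = 0.172) did not pass in limma with the covariate. The Ppara value in this fit ran from -1.72 without D3 to -0.28 without D1.

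**Figure D3:**
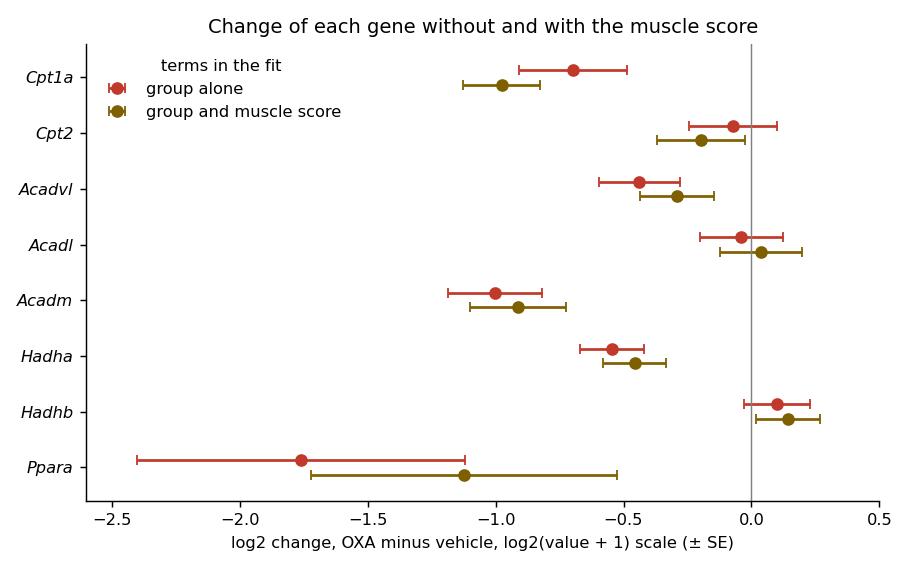
Log2 change of each gene, OXA minus vehicle, on the log2(value + 1) scale (x axis), from the fit with treatment alone (red) and with treatment and muscle score (brown); points are estimates and lines ± 1 SE. Cpt1a lies at -0.70 without the score and at -0.98 with it, Acadm at -1.003 and -0.91, and Hadha at -0.54 and -0.46.

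The same fit gave each gene's slope on the muscle score within the groups. Cpt1a was the only member with a slope that passed, at -0.49 ± 0.11 log2 units per unit of score (limma adjusted p = 0.0140), against 8.75% of all genes tested with a slope called, 3.96% negative and 4.79% positive. Its lowest OXA value was in D1 and its highest OXA values in D2 and D4, the OXA libraries richest and poorest in muscle. D1 was also the deepest OXA library (8364227 reads), and D2 (3675479) and D4 (3848628) were the shallowest. C1 was deep (7665878 reads) but low in muscle (score -0.68). The part of depth was not tested. The Cpt1a slope no longer passed without D1 (slope -0.42, limma adjusted p = 0.218). Nor did it pass without A5, the shallowest vehicle library, D2 and D4 together (slope -0.36, limma adjusted p = 0.355). It ran from -0.55 to -0.42 when 1 library was left out. Among the 24 muscle markers, from which the score was made, 20 had a positive slope called. Ppara (1.13 ± 0.45, adjusted p = 0.142) and Acadvl (0.26 ± 0.11, adjusted p = 0.165) had positive slopes that did not pass in limma, and the Ppara slope ran from 0.743 without D3 to 1.85 without D1. Of the 10 squamous epithelium markers, 2 had a negative slope called and 0 a positive one, and of the 10 leukocyte markers 0 had a slope called; the part of the epithelial markers in the Cpt1a slope was not tested.

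**Figure D4:**
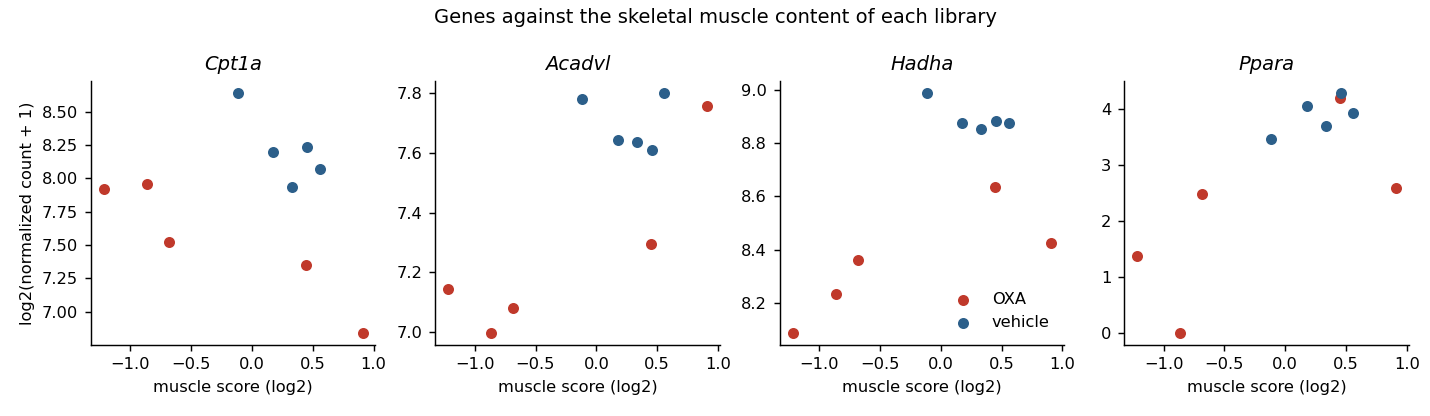
Log2(normalized count + 1) of Cpt1a, Acadvl, Hadha and Ppara (y axes) against the skeletal muscle score of each library (x axis, log2 units), OXA in red and vehicle in blue; each point is 1 library. Cpt1a is lowest in D1, the library with the highest score (0.91), and the Hadha points of the OXA libraries lie below those of all vehicle libraries.

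The genes most like Cpt1a in their deviations from the group means over the 10 libraries were Pnpla1 (Pearson r = 0.982), Hr (0.979) and Gak (0.976). For Ppara these were Atp6v1g2 (0.963), Nsun5 (0.960) and D10Jhu81e (0.957). They were picked as the highest among tested protein-coding genes outside the members, with predicted and clone-named genes left out. High values are therefore part of the choice. Among the members themselves, Cpt1a ran against Acadvl (r = -0.70), Hadha ran with Ppara (0.762), and Hadha and Hadhb showed almost no shared deviation (0.0146), all over libraries that share depth and normalization.

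Most of the other genes of mitochondrial beta-oxidation were lower too. Of 25 such partners, all tested, 18 were called lower and 0 higher in OXA libraries, with a median log2 change of -0.64, against 14.2% of all genes tested called lower. There were 11 that were lower without overlap between the groups, against 10.4% of all genes tested. With the muscle score in the fit, 15 were called lower, against 15.2% of all genes tested. Acaa2, the mitochondrial thiolase, averaged 294 ± 33.7 normalized counts in OXA and 747 ± 180 in vehicle libraries (log2 change -1.32, limma adjusted p = 4.05e-05). Etfa and Etfb, the subunits of the flavoprotein that takes electrons from the acyl-CoA dehydrogenases, changed by -0.87 (adjusted p = 6.87e-05) and -0.77 (adjusted p = 0.00149) in limma. Acad9, an acyl-CoA dehydrogenase relative that helps assemble respiratory complex I, changed by -1.03 (limma adjusted p = 7.37e-04).

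Peroxisomes shorten very long and branched chains by a separate set of enzymes. Of 18 peroxisomal genes, 16 were tested, 9 were called lower and 0 higher (14.2% and 15.7% over all genes tested), with a median of -0.55, and Acot3 was at 0 throughout. The fit with the muscle score called 7 lower and 1 higher, Abcd2, against 15.2% and 15.3% of all genes tested. Acox2, the branched-chain acyl-CoA oxidase, had 65.7, 27.0, 74.2, 42.1 and 36.7 normalized counts in OXA libraries C1 and D1 to D4, against 278, 238, 376, 202 and 352 in vehicle libraries A1 to A5. Its groups were far apart, with a log2 change of -2.59 ± 0.27 (SE; limma adjusted p = 1.41e-05). Crot, the carnitine octanoyltransferase that exports shortened chains (-1.34, adjusted p = 7.52e-05), Abcd3, a transporter of the peroxisomal membrane (-1.20, adjusted p = 4.10e-05), and Decr2, a dienoyl-CoA reductase (-1.11, adjusted p = 6.33e-04), were also lower in limma.

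Most tested genes of a list of PPAR targets were lower as well: of 15 listed, 10 were tested, 7 were called lower and 0 higher (14.2% and 15.7% over all genes tested), with a median of -0.97, and Cyp4a10 was at 0 throughout. Pdk4, the kinase that shuts pyruvate dehydrogenase when fatty acids are burned, had 167, 204, 154, 280 and 51.1 normalized counts in OXA libraries C1 and D1 to D4, against 813, 879, 1126, 1512 and 1437 in vehicle libraries A1 to A5. The highest OXA library, D3, lay below the lowest vehicle library, A1 (log2 change -2.89 ± 0.36, SE; limma adjusted p = 5.06e-05). Acot1, a cytosolic acyl-CoA thioesterase (-2.40, adjusted p = 2.29e-06), Ucp3, a mitochondrial carrier of muscle (-1.82, adjusted p = 7.02e-05), and Txnip, a thioredoxin-binding protein (-1.01, adjusted p = 3.41e-04), fell in limma too. With the muscle score in the fit, 7 of these 10 genes were called lower and 1 higher, against 15.2% and 15.3% of all genes tested.

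**Figure D5:**
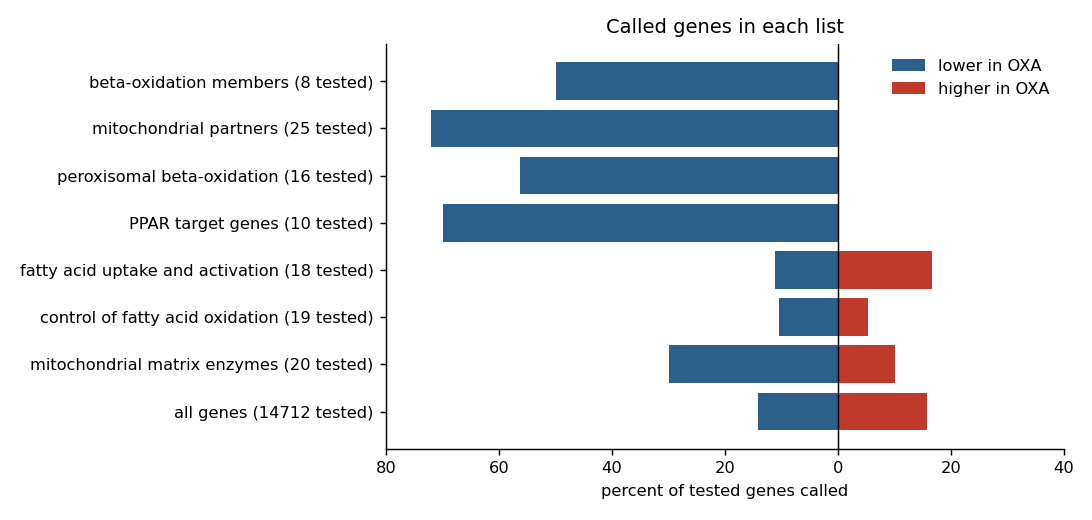
Percent of the tested genes of each list (y axis) called lower (blue, to the left) and higher (red, to the right) in OXA against vehicle libraries by limma; the lowest row gives all 14712 genes tested, 14.2% lower and 15.7% higher. The members (4 of 8), mitochondrial partners (18 of 25), peroxisomal genes (9 of 16) and PPAR target genes (7 of 10) have calls to the left and none to the right.

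Genes of fatty acid uptake and activation were called at shares near those of all genes. Of 22 genes, 18 were tested, 3 were called higher and 2 lower, against 15.7% higher and 14.2% lower over all genes tested, with a median of 0.02. Fabp4, the fatty acid binding protein of adipocytes and macrophages, averaged 1542 ± 175 normalized counts in OXA and 715 ± 81.6 in vehicle libraries (log2 change 1.11, limma adjusted p = 3.67e-05). Slc27a3, a fatty acid transport protein family member (1.82, adjusted p = 6.97e-04), and Acsl5, an acyl-CoA synthetase (0.65, adjusted p = 0.0104), were also higher, and Dbi, the acyl-CoA binding protein, was lower (-1.17, adjusted p = 0.00176) in limma. Beside Fabp4, 3 of the 9 tested adipocyte markers were called higher and 0 lower, with summed counts of 733 to 2252 in OXA and 622 to 1058 in vehicle libraries, and Cfd, the most abundant, changed by 1.103 (limma adjusted p = 0.0170). Of the leukocyte markers, 8 of 10 were called higher, with Lyz2, the macrophage lysozyme, at 1.26 (limma adjusted p = 6.44e-04); their part in the Fabp4 change was not tested.

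Of 19 regulators of the pathway, all tested, 1 was called higher and 2 lower, with a median of -0.23, against 15.7% higher and 14.2% lower over all genes tested. When 1 library was left out, 0 to 3 were called higher and 0 to 2 lower. Ppard, the PPAR receptor that is broadly expressed, was higher in OXA libraries (264 ± 23.0 against 200.99 ± 15.3 normalized counts in vehicle libraries; log2 change 0.39, limma adjusted p = 0.0306). Prkaa2, the catalytic AMPK subunit abundant in muscle, was lower (-1.01, adjusted p = 0.0306) and followed muscle content within the groups (slope 0.88, limma adjusted p = 7.50e-04). Prkab1, an AMPK beta subunit, changed by -0.55 (adjusted p = 0.0478), and Tfam, a factor for mitochondrial DNA, did not pass in limma (-0.37, adjusted p = 0.0596). The Ppard, Prkaa2 and Prkab1 calls were each lost without several single libraries (7, 7 and 8 of the 10), with limma adjusted p up to 0.0840, 0.0751 and 0.109 in turn.

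Other enzymes of the mitochondrial matrix, chosen as a set outside fatty acid oxidation, gave a mixed picture. Of 20 tested, 2 were called higher and 6 lower, with a median of -0.13, against 15.7% higher and 14.2% lower over all genes tested. When 1 library was left out, 1 to 4 were called higher and 4 to 7 lower, and CPM scaling and DESeq2 each called 4 higher. The fit with the muscle score called 4 higher and 5 lower, against 15.3% and 15.2% of all genes tested. Mdh2, malate dehydrogenase, averaged 1795 ± 324 normalized counts in OXA and 2830.4 ± 104 in vehicle libraries (log2 change -0.67, limma adjusted p = 0.00285). Suclg1, a succinyl-CoA ligase subunit (-0.81, adjusted p = 0.00148), and Fh1, fumarase (-0.74, adjusted p = 0.00367), were lower, and Pdhb, a pyruvate dehydrogenase subunit, was higher (0.52, adjusted p = 0.0103) in limma. Over the 5 wider pathway lists together, 88 of 99 genes were tested. Of these, 38 were called lower and 4 higher, against 14.2% and 15.7% of all genes tested. With the muscle score in the fit, 34 were called lower and 7 higher, against 15.2% and 15.3% of all genes tested.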

How the data were processed

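Whole-esophagus CEL-Seq libraries were compared, 5 OXA against 5 vehicle. The authors deposited 1 signal value per gene and library, which the values show to be counts divided by a size factor, with 2 decimals. Dividing by each library's step gave whole reads for 100% of values (tolerance 0.006). Per the submitters' processing notes, the build was GRCm38 and the tools named include TopHat2 2.1.0, HTSeq 0.11.2, cutadapt 1.10 and DESeq2 1.18.1, with no roles. Not given in the sources used here are the annotation release, strand setting, handling of reads matching several genes and use of molecular identifiers; without identifiers reads are not independent molecules. Against GENCODE M21, the 3′ end of 19418 of 53229 matched genes was moved outward by 300 bases in the deposited table.

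limma 3.58.1 (lmFit, eBayes with trend; R 4.3.3) was run on log2(value + 1), on which fold changes of low genes depend on the added 1, for genes with a mean of at least 5, with treatment alone and with treatment plus muscle score; adjusted p under 0.05 was called. Exact permutation tests used SciPy 1.17.1. Scripts were tested on simulated data. Alternatives were other pseudocounts, filters and scalings, edgeR 4.0.16 and DESeq2 1.42.0 on the whole reads, other muscle scores and left-out libraries. The members, lists and tests were chosen with earlier results of these data known. Named were all members, the 4 genes of each pathway list with the smallest p, Acta1, Ckm and the 2 other skeletal muscle markers with the highest mean, the highest marker of each other list, markers at 0 throughout, and the 3 genes most like Cpt1a and Ppara.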

Additional observations from a re-analysis of the deposited data

Results flagged for a closer look

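In 8 of 94 groups of 5 libraries, 1 library stood apart from the others by Dixon's ratio, the gap to the nearest library over the whole range (critical value 0.71); chance does so in about 1 in 20 groups. Among the members, Ppara in OXA library D3 was at 17.2 normalized counts, against 0 to 4.98 in the other OXA libraries (ratio 0.711). Cpt2 in OXA library D4 was at 137, against 92.9 to 105 in the others (ratio 0.72). Hadha in vehicle library A5 was at 507, against 462 to 471 in the others (ratio 0.782). Cpt1b in vehicle library A3 held the only read of that gene, 0.97 normalized counts against 0 (ratio 1). The Hadha to Hadhb log2 ratio in vehicle library A3 was -1.78, against -1.59 to -1.53 in the others (ratio 0.745).

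Outside the members, Acaa2 in OXA library D2 was at 353 normalized counts, against 270 to 289 in the others (ratio 0.774). Prkab1 in vehicle library A5 was at 328, against 180 to 209 (ratio 0.804), and Myl4 in the same library at 147, against 101 to 114 (ratio 0.715).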

How the results depend on the processing

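The number of members called lower was 4, and 2 to 4 when 1 library was left out; without A5 it was 2. edgeR and DESeq2 on the whole reads called 3, without Acadvl; edgeR called 2377 of all genes higher and 1994 lower, against 2309 and 2085 by limma. With the muscle score, CPM scaling (library totals) called 1 member higher, Hadhb (0.28, limma adjusted p = 0.0425). That scaling moved the median of all genes by 0.13 (log2) and made 65.4% of all calls higher, against 52.5% as reported; Acadm, Hadha and Cpt1a stayed lower. Members with a negative muscle slope called numbered 0 without A5, D2 and D4, and 0 to 1 without 1 library. Without A5, D2 and D4 the Hadha to Hadhb log2 difference was -0.48 (exact permutation p = 0.0571, the smallest its 35 splits allow). Cpt1a minus the muscle score differed by -0.13 (exact permutation p = 0.833), and by -0.47 to 0.33 without 1 library (above 0 without D1, D3 or A5).

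Among results that did not pass, the sign turned for Cpt2 (0.058) and Acadl (0.091) under CPM scaling, for Acta1 (0.057 in edgeR and DESeq2; 0.29 without A5, D2 and D4), and without those 3 libraries for Cidea (-0.29), Myl4 (0.12) and Tnnc2 (0.0083). Without 1 library, log2 changes ran from -0.16 to 0.027 for Cpt2, -0.15 to 0.080 for Acadl, -0.47 to 0.11 for Acta1, -0.19 to 0.35 for Cidea and -0.32 to 0.017 for Myl4. With the muscle score they ran from -0.072 to 0.13 for Acadl and -0.00048 to 0.21 for Hadhb, and slopes from -0.044 to 0.31 for Acadm, -0.031 to 0.25 for Acadl and -0.046 to 0.12 for Hadhb. The causes were not tested.

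No paired analysis was possible because the library names A1 to A5, C1 and D1 to D4 carry no number that the labels tie across groups. The Cpt1b ratio to Cpt1a and Cpt1b minus muscle score were not computed, since Cpt1b was under the limit of 3 reads. Depth limits Ppara, and D2 and D4 are the shallowest libraries. For Cpt1b the part of depth was not tested, and how reads shared with Gm44502 were treated is not known.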
